A study of Mus musculus with 16 samples.

Results

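A set of 8 genes known as markers of bile duct epithelium and of liver progenitor cells was followed in the liver of mice that had lost one copy of Gli2, which codes for a hedgehog-controlled transcription factor, and in wild-type mice, on a high-fat or a control diet. The set consists of Krt7, Krt19, Sox9, Epcam, Spp1, Cd24a, Prom1 and Cftr. Of these 8 genes, 7 had a probe set that the platform annotation assigns to a single gene symbol, each with 1 probe set, out of 19938 genes measured that way. Spp1 is not analysed here. The livers came from 16 adult mice in 4 groups of 4: Gli2 heterozygous null (Het) on high-fat diet (HFD), Het on control diet, wild type (WT) on HFD and WT on control diet. Het mice carried 1 null copy of Gli2, and the diets were given for 12 weeks. Wild-type animals are labelled by Gli1 rather than by Gli2 in their genotype entry, while the series text has only Gli2. Neither strain nor sex is given in the labels. Each animal gave 1 Affymetrix MoGene 1.0 ST array, so the number of arrays limits the precision. The values are log2 levels, and a difference of 1 is a doubling. All livers were whole tissue, in which fewer cells of a type and less RNA per cell cannot be told apart.

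Cholangiocytes, the epithelial cells that line the bile ducts, are a small minority of liver cells and differ from hepatocytes in their keratins, their surface proteins and their channels. When the liver is injured or loaded with fat for long, cells with duct markers can multiply around the portal tracts, which is called the ductular reaction, and some of them can act as progenitors. Hedgehog ligands are known to act on these cells and on the stellate cells beside them, with Gli2 as one of the transcription factors that carry the signal. None of the markers is exclusive to ducts. Cd24a is also made by B cells and granulocytes, and Sox9 and Epcam are found in other gut epithelia and in the pancreas.

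The sequence in front of a gene's start is where transcription factors such as Gli2 could bind, so those of a keratin and of a surface marker are shown. RefSeq entries of build GRCm38.p6 were given for 5 of the 8 genes: Krt7, Epcam, Spp1, Prom1 and Cftr. The 250 bases before the start of Krt7 lie at chr15:101412153-101412402 on the plus strand, and those of Epcam at chr17:87635729-87635978 on the plus strand. Capitals mark CpG dinucleotides.
Krt7: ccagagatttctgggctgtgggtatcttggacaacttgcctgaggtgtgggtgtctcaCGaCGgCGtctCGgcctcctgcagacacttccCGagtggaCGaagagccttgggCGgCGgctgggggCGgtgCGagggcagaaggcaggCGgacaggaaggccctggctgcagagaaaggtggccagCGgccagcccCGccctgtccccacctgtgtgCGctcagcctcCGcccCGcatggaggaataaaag
Epcam: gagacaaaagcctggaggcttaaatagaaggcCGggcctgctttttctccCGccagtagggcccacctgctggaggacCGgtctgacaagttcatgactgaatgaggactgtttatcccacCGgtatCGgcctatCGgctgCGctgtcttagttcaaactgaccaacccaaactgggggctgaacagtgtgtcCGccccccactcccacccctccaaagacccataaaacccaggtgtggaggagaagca
The Krt7 window held 16 CpG dinucleotides and the Epcam window 8, against a median of 6 over 32851 mouse promoter windows of the same length. At least as many as in Krt7 were held by 25.4% of those windows, and at least as many as in Epcam by 43.0%. In the windows of 250 bases before and 50 after the start, the GLI motif GACCACCCA and its reverse complement TGGGTGGTC occurred in no entry of these 5 genes. The motif occurred in 83 of 32851 promoters, or 0.253%. The core of the SOX motif, ACAAT with its reverse complement ATTGT, occurred in 10192 promoters (31.0%) and in none of these entries. The absence says only that these letters are not in these windows.

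The tissue was checked first. The 10 measured hepatocyte markers averaged 13.57 in each of the 4 groups, high on the scale of these arrays. Array 2 of the Het control group (Het_control 2) stood apart from the others. It correlated with the remaining 15 at 0.961 to 0.979 over all genes, against 0.991 to 0.998 among those 15, and its interquartile range was 1.95, against 2.40 to 2.60. This liver stayed in the fit, and values without it are given for some of the differences. The Gli2 probe set does not check the genotype, because no label says which part of the gene was deleted. Gli2 averaged 7.53 ± 0.07 in Het HFD, 7.70 ± 0.30 in Het control, 7.51 ± 0.08 in WT HFD and 7.57 ± 0.02 in WT control livers (SD, n = 4 each). Het_control 2 had Gli2 at 8.14, and the other Het control livers averaged 7.55 ± 0.05 (n = 3). Het minus WT over both diets gave 0.08 for Gli2 (SE 0.07, adjusted p = 0.632) and 0.05 (adjusted p = 0.633) for Gli1, another Gli factor and a hedgehog target gene. Both differences include Het_control 2, where Gli1 stood at 8.63, against a mean of 8.38 in the other Het control livers.

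**Figure D1:**
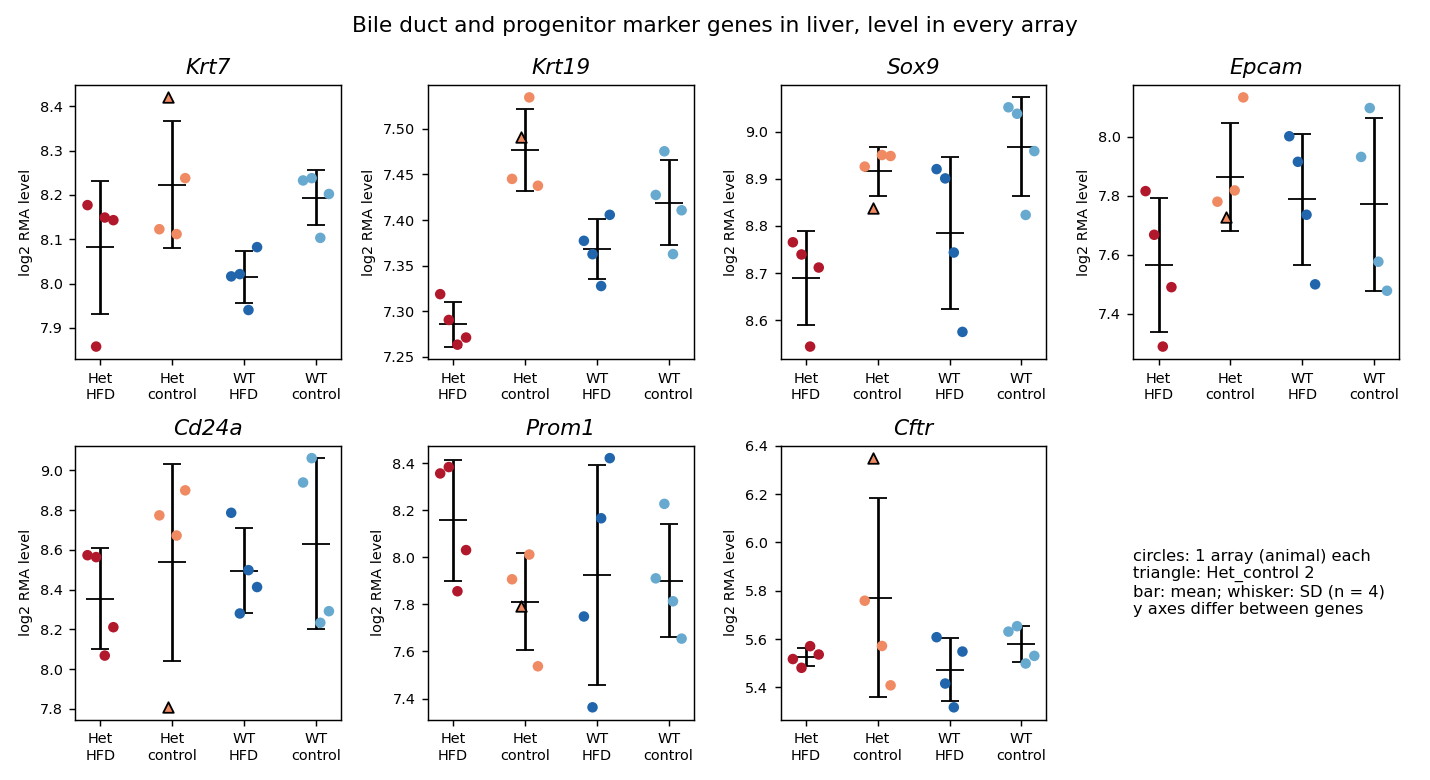
Log2 level (vertical axes) of the 7 measured marker genes in each liver, by group: Het HFD, Het control, WT HFD and WT control. Points are animals, the triangle is Het_control 2, and bars are the mean ± SD of 4 animals. The 4 Krt19 values of Het HFD livers lie between 7.26 and 7.32 and below all 4 of Het control livers.

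Krt7 and Krt19 are the keratins by which bile ducts are stained in tissue sections. The Krt19 level was 7.32, 7.29, 7.26 and 7.27 in the 4 Het HFD livers, against 7.45, 7.49, 7.53 and 7.44 in the 4 Het control livers. It was 7.38, 7.36, 7.33 and 7.41 in WT HFD livers, against 7.43, 7.48, 7.36 and 7.41 in WT control livers. In Het mice every HFD liver lay below every control liver, and in WT mice the groups overlapped. The diet difference in Het was -0.19 (SE 0.05, 95% interval -0.30 to -0.08, adjusted p = 0.0539), a 12.4% lower signal that just missed the threshold of 0.05 over all genes. It ranked 571 of 19938 genes by p. In WT the Krt19 diet difference was -0.05 (SE 0.05, adjusted p = 0.936). The 2 diet differences were compared directly by the interaction, which was -0.14 for Krt19 (95% interval -0.29 to 0.01, adjusted p = 0.618). Without Het_control 4 the Krt19 difference in Het passed the threshold (adjusted p = 0.0275), in a fit that called 3446 of all 19938 genes. Over the 16 fits that each left out 1 array the adjusted p of Krt19 ran up to 0.137.

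The Krt7 level was 8.18, 7.86, 8.15 and 8.14 in Het HFD livers, against 8.12, 8.42, 8.11 and 8.24 in Het control livers. It was 8.02, 8.02, 7.94 and 8.08 in WT HFD livers, against 8.23, 8.24, 8.10 and 8.20 in WT control livers. For this keratin the groups separated in WT, where all 4 HFD livers lay below all 4 control livers, and overlapped in Het. The diet difference was -0.14 in Het (SE 0.08, 95% interval -0.31 to 0.03, adjusted p = 0.220) and -0.18 in WT (SE 0.08, 95% interval -0.35 to -0.01, adjusted p = 0.761). Het_control 2 had the highest Krt7 level of all 16 livers, 8.42 against 7.86 to 8.24 in the others. The Het difference was -0.08 without it (adjusted p = 0.585) and -0.07 without Het_HFD 2, the lowest liver.

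Sox9 is a transcription factor of biliary cells and of the progenitor-like cells at the ends of the ducts. Its level was 8.77, 8.74, 8.54 and 8.71 in Het HFD livers, against 8.93, 8.84, 8.95 and 8.95 in Het control livers. It was 8.92, 8.90, 8.74 and 8.58 in WT HFD livers, against 9.05, 9.04, 8.82 and 8.96 in WT control livers. All Het HFD livers lay below all Het control livers, and the WT groups overlapped. The diet difference was -0.23 in Het (SE 0.08, 95% interval -0.40 to -0.06, adjusted p = 0.0985) and -0.18 in WT (SE 0.08, adjusted p = 0.742). The interaction was -0.04 (95% interval -0.28 to 0.20, adjusted p = 0.893).

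Epcam, Cd24a and Prom1 are surface proteins by which duct and progenitor cells are sorted. Epcam, an epithelial adhesion molecule, was at 7.82, 7.67, 7.29 and 7.49 in Het HFD livers, against 7.78, 7.73, 7.82 and 8.13 in Het control livers. Its level was 8.0, 7.92, 7.74 and 7.50 in WT HFD livers, against 7.93, 8.10, 7.58 and 7.48 in WT control livers. Both pairs of groups overlapped, and the spread within WT control livers (SD 0.29) was close in size to the diet difference in Het. That difference was -0.30 (SE 0.15, 95% interval -0.61 to 0.01, adjusted p = 0.169), and in WT it was 0.02 (SE 0.15, adjusted p = 0.996). The interaction for Epcam was -0.32 (adjusted p = 0.650).

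Cd24a, a small glycoprotein anchored in the membrane, was at 8.57, 8.56, 8.07 and 8.21 in Het HFD livers, against 8.77, 7.81, 8.67 and 8.90 in Het control livers. The value of 7.81 is that of Het_control 2, the lowest of all 16 livers, where the others spanned 8.07 to 9.06. The WT HFD livers had Cd24a levels of 8.79, 8.28, 8.50 and 8.41, against 8.94, 9.06, 8.23 and 8.29 in WT control livers. With all arrays the diet difference of Cd24a in Het was -0.18 (SE 0.22, adjusted p = 0.547), with overlapping groups. Without Het_control 2 it was -0.43 (adjusted p = 0.227), and over the fits that left out 1 array it ran from -0.43 to -0.06, the smallest without Het_control 4. In WT it was -0.14 (adjusted p = 0.959).

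Prom1, also known as CD133, was the only one of the 7 genes whose diet difference in Het was above 0. The Prom1 level was 8.36, 8.38, 7.86 and 8.03 in Het HFD livers, against 7.91, 7.79, 8.01 and 7.54 in Het control livers. It was 7.75, 7.36, 8.17 and 8.42 in WT HFD livers, against 7.91, 8.23, 7.81 and 7.65 in WT control livers. The WT HFD group alone spanned the lowest and the highest Prom1 level of all 16 livers. The diet difference was 0.34 in Het (SE 0.19, 95% interval -0.06 to 0.74, adjusted p = 0.207) and 0.02 in WT (SE 0.19, adjusted p = 0.995).

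Cftr is the chloride channel of the duct cell's inner surface, which drives the secretion of fluid into bile. Its level was 5.52, 5.48, 5.57 and 5.54 in Het HFD livers, against 5.76, 6.35, 5.57 and 5.41 in Het control livers. It was 5.61, 5.42, 5.32 and 5.55 in WT HFD livers, against 5.63, 5.65, 5.50 and 5.53 in WT control livers. Mean Cftr over the 16 livers was 5.59, above that of only 6.34% of all genes, and whether it exceeds background was not tested. Apart from Het_control 2 at 6.35, all livers lay between 5.32 and 5.76. The diet difference of Cftr in Het was -0.25 (SE 0.14, adjusted p = 0.215) with that liver and -0.05 (adjusted p = 0.746) without it. In WT it was -0.11 (adjusted p = 0.947).

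On high-fat diet, then, limma's test called none of the 7 genes in Het livers against control diet, where 442 of all 19938 genes, or 2.22%, were called. Krt19 was called in this contrast with array weights (adjusted p = 0.0249), a setting that called 1067 of all genes. With the number in the sample title, whose meaning is not stated, as a random block, Krt19 (adjusted p = 0.0086) and Sox9 (adjusted p = 0.0277) were called. That setting called 6938 of all genes, at an estimated correlation of -0.37 within the block. A fit on only the arrays of the 2 groups called 7 of all genes and 0 of the markers. At an unadjusted p under 0.05 stood 2 of the 7, Krt19 and Sox9, and 31.6% of all genes. The same 2 genes were lower without overlap between the groups, as were 7.15% of all genes. In value 6 of the 7 lay below 0, against 59.5% of all genes, and their median difference was -0.19, against -0.05 over all genes. In WT livers limma's test of the diet contrast called 0 genes of all 19938 (0%), and so 0 of the 7. There 2 of the 7, Krt7 and Sox9, stood at an unadjusted p under 0.05, against 6.43% of all genes, and 1 of the 7, Krt7, was lower without overlap, against 5% of all genes. Of the 7 differences in WT, 5 lay below 0, against 56% of all genes, and the median was -0.11, against -0.01 over all genes.

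By their mean value over the 16 arrays, 5 of the 7 genes (Krt7, Krt19, Epcam, Prom1 and Cftr) belonged to the lower-valued part of the table, split at its median. In Het the median diet difference was -0.13 over all genes in that lower part and 0.07 over those in the upper part. Without Het_control 2 these medians were -0.05 and 0.02. Genes of low value thus lay below 0 as a whole, and less so without that 1 liver. Of the 9969 genes in the lower part, 8320 lay below 0 in Het and 7060 in WT, where their median was -0.04. The shares below 0 among the 7 markers are to be read beside these. The differences of Krt19 and Sox9 without Het_control 2 were -0.19 (adjusted p = 0.0665) and -0.25 (adjusted p = 0.118) in Het.

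**Figure D2:**
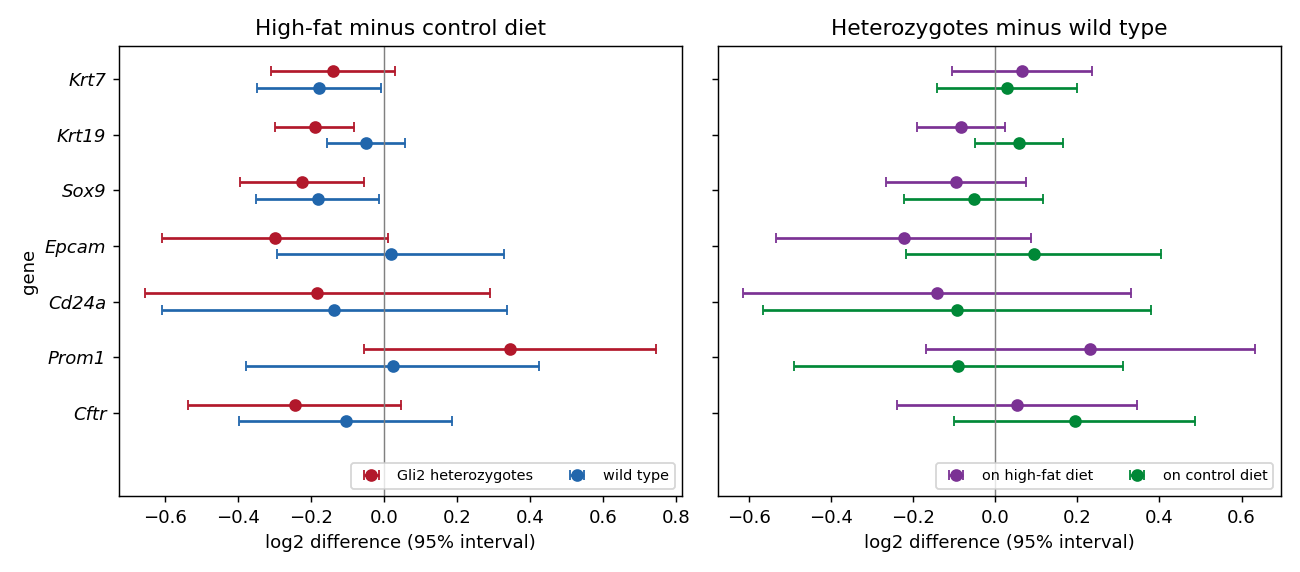
Log2 difference (horizontal axes) of each marker gene with its 95% interval from the fit over 16 arrays. The left panel shows HFD minus control diet in Het and in WT, and the right panel Het minus WT on HFD and on control diet. The intervals of Krt19 and Sox9 for diet in Het, and of Krt7 and Sox9 for diet in WT, do not reach 0, and no difference passed after adjustment.

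Over both genotypes, with 8 livers on each diet, 3 of the 7 genes had an unadjusted p under 0.05, against 26.9% of all genes. They were Sox9, Krt19 and Krt7. None was called, against 371 genes, or 1.86%, of all. The difference of HFD from control diet was -0.20 for Sox9 (SE 0.06, 95% interval -0.32 to -0.08, adjusted p = 0.0700), or 13.2% lower in signal. It was -0.12 for Krt19 (SE 0.04, adjusted p = 0.0825) and -0.16 for Krt7 (SE 0.06, adjusted p = 0.120). Sox9 lies so close to the threshold that single livers move it across: it was called without Het_control 2 (difference -0.22, adjusted p = 0.0405) and without WT_control 3 (adjusted p = 0.0495). Krt19 was called without Het_control 4 (adjusted p = 0.0484). Of all genes, 712 were called without Het_control 2, 423 without WT_control 3 and 1754 without Het_control 4. Array weights called Sox9 and Krt19, the title number as a block all 3, and repeated quantile normalization Sox9. These settings called 2105, 3703 and 274 of all genes.

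Genotype made no called difference to any of the 7 genes. On HFD, Het minus WT differences ran from -0.22 for Epcam to 0.23 for Prom1, with adjusted p near 1 for each. Between them lay Cd24a at -0.14, Sox9 at -0.09, Krt19 at -0.08, Cftr at 0.05 and Krt7 at 0.07. On that diet 1 gene of all (0.00502%) was called. The unadjusted p was under 0.05 for 0 of the 7, against 3.57% of all genes. Krt19 was the 1 gene whose groups did not overlap, with 7.26 to 7.32 in Het HFD livers against 7.33 to 7.41 in WT HFD livers, as in 1.57% of all genes that were lower in Het. On control diet the differences ran from -0.09 for Cd24a to 0.19 for Cftr, with Prom1 at -0.09, Sox9 at -0.05, Krt7 at 0.03, Krt19 at 0.06 and Epcam at 0.09 between them, and 0 of all genes (0%) were called. Here 0 of the 7 and 15.7% of all genes had an unadjusted p under 0.05. Without Het_control 2 the difference of Cd24a was 0.15 and that of Cftr 0.0012, and that of Cd24a was also above 0 without WT_control 1 or WT_control 2 and with array weights. Over both diets 1 gene of all (0.00502%) was called. The 7 differences there ran from -0.12 for Cd24a to 0.12 for Cftr. Between them lay Sox9 at -0.07, Epcam at -0.06, Krt19 at -0.01, Krt7 at 0.05 and Prom1 at 0.07. Each had an unadjusted p over 0.05, while 7.76% of all genes were under it. Both ends rested on Het_control 2, without which the difference over both diets was 0.005 for Cd24a and 0.03 for Cftr.

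The interaction sets the diet response of Het mice against that of WT mice. For the 7 genes it ran from -0.32 (Epcam) to 0.32 (Prom1), with 0 called. It was -0.14 for Krt19 and for Cftr, -0.05 for Cd24a, -0.04 for Sox9 and 0.04 for Krt7. Leaving out Het_control 2 gave an interaction of 0.05 for Cftr, -0.29 for Cd24a and 0.10 for Krt7. With all arrays the interaction called 0 of all genes (0%), and 0 of the 7 against 8.13% of all genes had an unadjusted p under 0.05. The 95% interval ran from -0.76 to 0.12 for Epcam and from -0.25 to 0.89 for Prom1, and both reach sizes larger than the diet difference in either genotype.

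Other duct genes were looked at as a list of 26, of which 22 were measured. In Het livers on HFD against control diet, 1 of the 22 rose, against 1.5% of all genes, and 1 fell, against 0.712%. In value 5 lay above 0 and 17 below, where 59.5% of all genes lay below, and the median was -0.18. Several of the 22 belong to the lower-valued part of the table, where 8320 of 9969 genes lay below 0, with a median of -0.13. Krt23, a type I keratin, rose by 0.99 (SE 0.22, adjusted p = 0.0356). Its level was 8.36, 8.24, 8.25 and 7.98 in Het HFD livers, against 7.20, 7.32, 7.14 and 7.18 in Het control livers, so the groups were far apart. Tspan8, a tetraspanin of epithelial membranes, fell by 0.35 (SE 0.08, adjusted p = 0.0372), with 6.15, 6.03, 6.08 and 6.14 in Het HFD livers, against 6.57, 6.34, 6.48 and 6.43 in Het control livers. Each of the 2 calls was lost in 9 of 16 fits that left out 1 array, at an adjusted p of up to 0.101 for Krt23 and 0.108 for Tspan8. The losses came with any of the 4 Het HFD livers and with WT_control 1, Het_control 1 and Het_control 3 for both genes. They came also with WT_control 2 and Het_control 2 for Krt23, and with WT_HFD 1 and WT_HFD 3 for Tspan8. Over the 16 fits the number of fallen genes on the list ran from 0 to 7. The number of all genes called in either direction ran from 45 to 3446 over the same fits.

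In WT livers 0 of the 22 duct genes were called, 6 lay above 0 and 16 below (56% of all genes lay below), and the median was -0.05. Krt23 was split there: 7.57, 7.16, 8.37 and 8.43 in WT HFD livers, against 7.09, 7.19, 7.79 and 7.29 in WT control livers, a difference of 0.54 (adjusted p = 0.663). Over both genotypes 2 of the 22 rose, against 1.35% of all genes, and 0 fell, against 0.512%. Leaving out 1 array gave 0 to 2 that rose and 0 to 3 that fell, with 104 to 1754 of all genes called in either direction. Krt23 rose by 0.77 (SE 0.15, adjusted p = 0.0207), a call lost without WT_control 1 or WT_control 2 (adjusted p up to 0.0537). Slc10a2, the sodium-dependent carrier by which duct cells and ileum take up bile acids, rose by 0.98 (SE 0.22, adjusted p = 0.0334). Its level was 8.75, 9.24, 9.39 and 9.74 in Het HFD livers, against 7.36, 7.79, 7.91 and 9.39 in Het control livers. The WT HFD livers had Slc10a2 at 8.75, 8.58, 8.49 and 9.07, against 7.56, 8.17, 7.97 and 8.01 in WT control livers. Het_control 4, at 9.39, lay within the range of the Het HFD livers, while in WT every HFD liver lay above every control liver. The Slc10a2 call was lost in 11 of 16 fits that left out 1 array, at an adjusted p of up to 0.0815. It was kept without WT_control 3, Het_control 2, Het_control 4, WT_HFD 2 and Het_HFD 1.

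A further 4 duct or epithelial genes are given for their roles, chosen after their values were seen. Cdh1, the adhesion protein E-cadherin, had a diet difference of -0.59 in Het (SE 0.19, adjusted p = 0.0809), and Ehf, an epithelial transcription factor, had -0.34 (SE 0.10, adjusted p = 0.0593). Krt8 and Krt18, the keratin pair that hepatocytes share with duct cells, had 0.14 (adjusted p = 0.378) and -0.04 (adjusted p = 0.795).

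**Figure D3:**
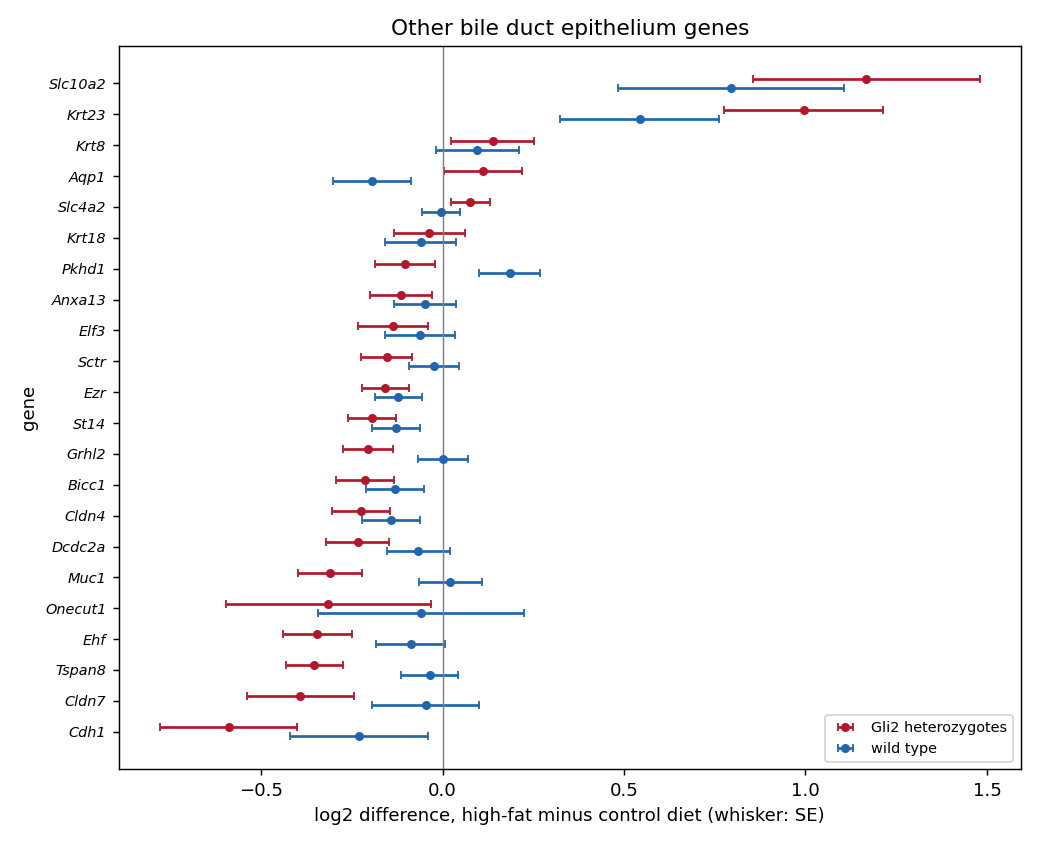
HFD minus control diet, as a log2 difference (horizontal axis, ± SE), for the 22 other duct genes, in Het and in WT livers. In Het 17 of the 22 lie below 0, as do 59.5% of all genes and 8320 of the 9969 genes of lower value. Slc10a2 and Krt23 stand at 1.17 and 0.99.

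Among 14 measured genes of progenitor and fetal liver cells, 0 were called in Het and 0 in WT, with medians of -0.09 and -0.08, against -0.05 and -0.01 over all genes. Cd44, a hyaluronan receptor, had the smallest p in Het, with a difference of 0.41 (SE 0.11, adjusted p = 0.0606), followed by Foxl1 with -0.22 (adjusted p = 0.149). In WT they were Thy1 with -0.19 (adjusted p = 0.742) and Gpc3 with -0.24 (adjusted p = 0.782). Notch and Hippo signals direct progenitors towards a duct fate. Of the 23 genes of these pathways 0 were called for diet in either genotype, and their medians were -0.07 in Het and -0.04 in WT. The smallest p in Het belonged to Tead3 at -0.17 and Dll4 at 0.15 (adjusted p = 0.125 and 0.126), and in WT to Tead2 at -0.19 and Nrarp at -0.15 (adjusted p = 0.660 and 0.775). Of 17 measured hedgehog genes 1 rose in Het, against 1.5% of all genes. It was Gas1, a co-receptor for the ligands, by 0.40 (SE 0.10, adjusted p = 0.0479). That call was lost in 14 of 16 fits that left out 1 array, all except those without Het_control 2 or Het_control 4, at an adjusted p of up to 0.133. Smo, the membrane protein that passes the signal on, had -0.27 (SE 0.08, adjusted p = 0.0599) in Het. No hedgehog gene was called in WT, where the smallest p belonged to Gli1 at -0.15 (adjusted p = 0.738) and Hhat at 0.08 (adjusted p = 0.908).

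Markers of other cells were measured beside the duct genes in the diet contrast of Het. Of 16 macrophage genes 7 rose, against 1.5% of all genes, with a median of 0.31. Without Het_control 2 it was 4 of the 16, against 0.582% of all genes. Over the fits that left out 1 array it was 1 to 7, where 45 to 3446 of all genes were called in either direction. Tyrobp, an adapter of immune receptors, rose by 0.74 (SE 0.12, adjusted p = 0.0118), a call kept in all 16 fits that left out 1 array. C1qb, a complement component, rose by 0.63 (SE 0.12, adjusted p = 0.0223), a call lost without Het_HFD 1, Het_HFD 2 or Het_HFD 3 (adjusted p up to 0.0822). The mean level of the macrophage list per liver was 9.72 to 10.08 in Het HFD livers, against 9.36 to 9.68 in Het control livers. In WT 0 of the 16 were called, 14 lay below 0, against 56% of all genes, and the median was -0.05. Cd68 at -0.19 (adjusted p = 0.845) and Lgals3 at -0.11 (adjusted p = 0.922) had the smallest p. Of 15 stellate cell and fibroblast genes 1 rose, again against 1.5% of all genes: Lrat, which stores retinol as ester, by 0.96 (SE 0.23, adjusted p = 0.0465). The Lrat call was lost in 12 of 16 such fits, all except those without Het_control 3, Het_control 4, WT_HFD 2 or WT_HFD 4 (adjusted p up to 0.113). Of 9 B cell and granulocyte genes, 10 hepatocyte genes, 15 gallbladder and gut genes and 10 pancreas genes 0 were called. Those of smallest p in these lists were Ly6g at -0.24 and Cd79a at 0.25, and Fgb at -0.10 and Apoa1 at -0.09, while Col1a1 came second in the stellate list at -0.23.

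Lists of tissues that lie next to the liver also lay mostly below 0. Of the 15 gallbladder and gut genes 14 lay below 0 in Het, and the median was -0.20 (-0.10 without Het_control 2). Slc5a1 at -0.37 (adjusted p = 0.0569) and Fabp2 at 0.65 (adjusted p = 0.0940) had the smallest p. For the 10 pancreas genes all 10 lay below 0, with a median of -0.13, or -0.06 without that liver. They were led by Ctrb1 at -0.33 (adjusted p = 0.0675) and Cela2a at -0.27 (adjusted p = 0.0680). Of all genes 59.5% lay below 0 in this contrast. In the lower-valued part of the table it was 8320 of 9969 genes, with a median of -0.13, or -0.05 without Het_control 2. The mean level of the gallbladder and gut list was 7.43 to 7.53 in Het HFD livers, against 7.56 to 7.83 in Het control livers. It was 7.45 to 7.54 in WT HFD livers, against 7.51 to 7.62 in WT control livers. That of the pancreas list was 7.46 to 7.61 in Het HFD livers, against 7.59 to 7.92 in Het control livers. The part of such tissue in the values of the duct genes was not tested.

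Some of the markers varied together between livers. Over the 16 livers, 21 pairs of the 7 genes were compared, and 4 pairs passed an adjusted p of 0.05 by Pearson's r in a permutation test. The share of all gene pairs that correlate as strongly was not computed, so these relations are not shown to be particular to the markers. Sox9 and Epcam had r = 0.74 (p = 0.00095, adjusted p = 0.0163) and rho = 0.65 (p = 0.00825, adjusted p = 0.0433). Epcam and Cd24a had r = 0.73 (p = 0.00155, adjusted p = 0.0163) and rho = 0.79 (p = 0.00048, adjusted p = 0.0101). Krt19 and Sox9 had r = 0.67 (p = 0.00519, adjusted p = 0.0341) and rho = 0.75 (p = 0.00142, adjusted p = 0.0149).

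The fourth pair was Krt7 and Cftr, with r = 0.67 (p = 0.00649, adjusted p = 0.0341) and rho = 0.44 (p = 0.0894, adjusted p = 0.197). Without Het_control 2, the highest liver for both, r was 0.40 (adjusted p = 0.315), so that relation rests on 1 liver. When the 2 livers farthest from the median on the first gene were left out, r was 0.58 for Sox9 with Epcam, 0.65 for Epcam with Cd24a and 0.57 for Krt19 with Sox9, and 0 pairs passed over the 14 livers left, a setting that narrows the range of the first gene by its construction. Without Het_control 2 alone 5 pairs passed: Sox9 with Epcam (r = 0.74), Epcam with Cd24a (r = 0.85), Krt19 with Sox9 (r = 0.71), Sox9 with Cd24a (r = 0.70) and Krt19 with Cd24a (r = 0.65).

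The groups were then taken out by subtracting each group's mean. Sox9 with Epcam (r = 0.81, adjusted p = 0.0145), Epcam with Cd24a (r = 0.74, adjusted p = 0.0487) and Sox9 with Cd24a (r = 0.59, adjusted p = 0.0487) passed within groups. Krt19 with Sox9 did not (r = 0.24, adjusted p = 0.653). Without Het_control 2 as well, 1 pair passed, Sox9 with Epcam (r = 0.80, adjusted p = 0.0290). No pair with Prom1 passed in any of these settings. Its r with Sox9 was -0.41 (adjusted p = 0.273) for the levels of the 16 livers and -0.23 (adjusted p = 0.653) within groups. Within groups Prom1 had r = 0.50 with Krt19 (adjusted p = 0.238) and r = 0.33 with Cd24a (adjusted p = 0.613).

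**Figure D4:**
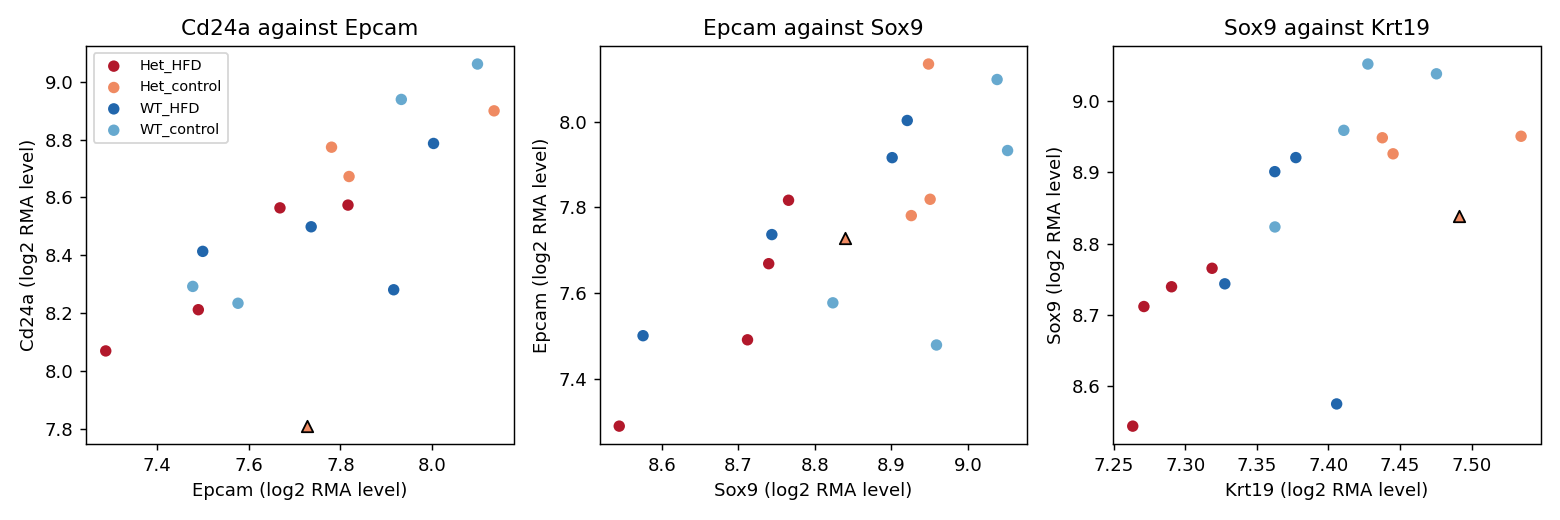
Log2 levels of 3 pairs of marker genes in the 16 livers, colored by group, with Het_control 2 as a triangle: Cd24a against Epcam, Epcam against Sox9 and Sox9 against Krt19. Livers high in one gene of a pair tend to be high in the other, and Het_control 2 falls below the trend for Cd24a at 7.81.

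The genes whose level ran closest to each marker over the 16 livers were listed as a description. For Epcam they were ccdc198 (r = 0.86), Loxl1 (0.84) and Tmem45a (0.75). Cd24a was closest to Alcam (0.85), Igsf10 (0.85) and Dhx15 (0.84). Without Het_control 2, a choice made after the data were seen, the closest to Cd24a were Tmem45a (0.85), Epcam (0.85) and Ehf (0.84), of which Ehf had r = 0.14 with that liver included. Epcam was then closest to ccdc198 (0.87), Cd24a (0.85) and Loxl1 (0.85). In the 15 livers, then, these 2 surface markers were each the second closest of all genes to the other.

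Sox9 ran closest to Cnp (r = 0.92) and to the ribosomal protein genes Rpl4 (0.89) and Rpl41 (0.88). Krt19 ran closest to Fgfr1 (0.90), Gask1a (0.89) and Scap (0.89), and with group means removed these were 0.65, 0.60 and 0.57. Krt7 ran closest to Tmem179 (0.92), Krt34 (0.90) and Igdcc3 (0.90), and Prom1 to Samd8 (0.88), Rab20 (0.83) and Rassf4 (0.83). Cftr ran closest to 9130008F23Rik (0.97), Olfr478 (0.95) and Mir361 (0.94), which without Het_control 2 were 0.84, 0.75 and 0.70. None of the 7 markers was among the 3 closest genes of another over the 16 livers.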

How the data were processed

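Total RNA from 16 livers was measured on Affymetrix MoGene 1.0 ST arrays. The authors deposited log2 levels for each probe set, with RMA and Affymetrix Expression Console named in the submitters' processing notes and no version stated there. Because RMA equalizes the intensity distributions of the arrays, levels are relative, and a shift of all transcripts would not be seen. Of 35556 probe sets, 21789 have 1 gene symbol, 1621 several and 12146 none in the platform annotation. Symbols were updated through a RefSeq table (GRCm38.p6; 19856 of 19938 genes matched), and for 999 genes with several probe sets the one with the highest mean was used. All 16 arrays entered 1 fit with a mean per group (limma 3.58.1, R 4.3.3), with 7 contrasts, Benjamini-Hochberg adjustment over all genes and calls at an adjusted p under 0.05. P-values take the animals as independent, and the sources used here do not state litters or cages. Correlations used 100000 permutations, with p adjusted over 21 pairs. All 7 genes are given in every contrast, with the 2 genes of smallest p of a list in the contrasts where it is discussed and the 3 most alike to each gene. The genes and lists were chosen with earlier results of these data known. Alternatives left out single arrays, renormalized, filtered dim genes, used all probe sets, changed the moderation or weighted arrays. Others used the number in the sample title as a random block or fitted only the groups compared.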

Additional observations from a re-analysis of the deposited data

Results flagged for a closer look

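In the 28 combinations of a marker gene and a group that were looked at, 1 value stood far from the other 3 of its group. Krt7 in Het HFD replicate 2 was 7.86, against 8.18, 8.15 and 8.14 in the other 3 Het HFD livers, a gap of 0.894 of the group's range, above the critical value of Dixon's test for 4 samples. Chance gives such a value in about 1 of 20 groups.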

How the results depend on the processing

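Of 1071 differences of the marker genes recomputed under the alternatives, 1058 stayed on the same side of the threshold. The other 13 passed where the main value had not. A changed sign was seen in 38, all with a main value of at most 0.14 in size. Many could not change sign by construction. Leaving out an array outside the 2 groups of a contrast, or changing the moderation, gives the same difference. The low count of sign changes is thus in part fixed in advance. The diet contrast in Het, with 0 of the 7 genes called, gave 1 with array weights (Krt19) and 2 when the title number was the random block (Krt19 and Sox9), and 0 to 1 when single arrays were left out, the 1 being Krt19 without Het_control 4. Over both genotypes, with 0 called, repeated quantile normalization gave 1 (Sox9), array weights 2 (Krt19 and Sox9) and the title number as a block 3 (Krt19, Krt7 and Sox9), and leaving out single arrays gave 0 to 1. The same settings moved the count over all genes: in Het it was 442, and 1067 with array weights, 6938 with the title number and 45 to 3446 without single arrays. Over both genotypes it was 371, and 2105, 3703 and 104 to 1754 under the same settings. Array weights gave Het_control 2 a weight of 0.07. Of 11 title numbers, 5 were held by more than 1 array, 0 were in both genotypes and 1 was in both diets, so arrays sharing a number mostly share a group. The title number's estimated correlation was -0.37, and the cause of the change was not tested. No marker gene was called in the other contrasts under any alternative. The fit without dim genes, those below the median level, held only Sox9 and Cd24a of the markers and could not call the other 5. Of the correlated pairs, 4 in the main setting, 0 passed without the 2 arrays farthest on the first gene (14 arrays of narrower range), 5 without Het_control 2, 3 with group means removed and 1 with both. A fit on only the 2 groups compared called 7 of all genes, and 0 of the marker genes, in the diet contrast in Het. Whether genes of the other lists called in Het are among them is not given here. That fit has no separate value for contrasts that use all 4 groups. No paired analysis was possible because the replicate numbers are only names and do not link animals across groups.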
